A study of Homo sapiens with 6 samples.

Results

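The suppressor of cytokine signalling (SOCS) family holds 8 genes, CISH and SOCS1 to SOCS7. The rows with these 8 symbols were taken from the 58174 gene symbols listed for each sample, and all 8 were found. T24 cells, a long-established human line from a bladder carcinoma, were used throughout. The shRNA-UBC9 group (n = 3) carried a lentiviral short hairpin RNA against UBC9, the conjugating enzyme of the SUMO pathway, and the shRNA-NC group (n = 3) carried a scrambled hairpin. The study's methods describe 1 UBC9 hairpin sequence in the pLKO.1 vector and puromycin selection of stably infected cells, and no other treatment was named for either group. Whether the selected cells were a pool or a clone is not given in the sources used here, and neither is whether the 3 samples of a group came from separate cultures, so the p-values measure the spread between these samples, which may be technical. Messenger RNA was sequenced, and levels are in RPKM, in which reads are divided by the length of the gene and by the mapped reads of the sample.

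SOCS proteins act as brakes on cytokine signalling. A cytokine binds its receptor, JAK kinases on the receptor phosphorylate it and the STAT transcription factors, and the STATs switch on target genes, among them CISH, SOCS1, SOCS2 and SOCS3 themselves. Each SOCS protein has an SH2 domain that binds phosphotyrosine, and a SOCS box that recruits elongins B and C, cullin-5 and RNF7 into a ubiquitin ligase. SOCS1 and SOCS3 also carry a short kinase inhibitory region that blocks JAK kinases directly, SOCS3 when docked on receptors such as gp130 (IL6ST). SOCS2 is best known as a brake on growth hormone signalling and CISH on STAT5-activating receptors. SOCS4 to SOCS7 have long N-terminal regions and are linked to receptor tyrosine kinases and their adaptors.

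STAT proteins bind DNA at short palindromes, and the letters TTCNNNGAA (N is any base) are the pattern usually given for them. The pattern is its own reverse complement, so each match counts for both strands. RefSeq promoter windows (GRCh38.p14, 250 bases before to 50 bases after a start, 300 in all) were at hand for 5 of the 8 members, CISH, SOCS1, SOCS3, SOCS4 and SOCS6, as 6 windows because SOCS3 has 2. SOCS2, SOCS5 and SOCS7 have no entry in the table. The letters occurred in 2689 of 35116 windows of all genes (7.66%). The CISH window held 4 matches, and the other 5 windows of the family held 0. The SOCS3 windows were chr17:78359618-78359917 and chr17:78360876-78361175. Neither holds the start of SOCS3 in GENCODE 44 (78360077), so the bases just upstream of that start were not searched. Only 7 windows of all genes (0.0199%) held 4 or more. The stretches of the CISH window that hold the matches, 2 in each, are shown because no other member window had any. They are read 5′ to 3′ on the minus strand, and the capitals mark the TTC and GAA of each match.

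CISH, 243 to 220 bases upstream of the start, chr3:50611994-50612017: ttTTCctgGAAagTTCttgGAAat
CISH, 131 to 102 bases upstream of the start, chr3:50611876-50611905: ggTTCtagGAAgacgctgcTTCcggGAAgg

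A match of letters is a description and not a binding site. CISH was the lowest of the 8 genes in every sample, as given below, so the window with the most matches belonged to the gene with the fewest reads.

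The number of reads behind each value was recovered from the steps in which low RPKM values rise. The samples held between 28219032 and 36058872 mapped reads, and the ranges of the groups overlapped. Of the 6 epithelial markers, KRT7, KRT8, KRT18 and KRT19 were abundant and fell, EPCAM was not called, and CDH1 (E-cadherin) was listed at 0 in 5 of the 6 samples. The 6 summed to between 938 and 1108 RPKM in shRNA-NC and between 426 and 563 RPKM in shRNA-UBC9. Of 9 genes of urothelial differentiation, GATA3, PPARG and FOXA1 were tested and fell, KRT20 was at 0, and the sum went from 33.8-42.5 to 12.8-15.7 RPKM. Sums over markers of cells that a pure line should lack were low in all samples, at most 1.84 RPKM for 8 leukocyte genes, 3.26 RPKM for 4 endothelial genes and 1.15 RPKM for 6 fibroblast genes. The endothelial gene CDH5 fell and the fibroblast gene COL1A1 rose. In bulk RNA, fewer cells with a transcript and less of it per cell cannot be told apart. The part of these shifts in the values of the SOCS family was not tested.

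In shRNA-UBC9, SOCS3 was up-regulated while SOCS2 and SOCS5 fell. The mean of SOCS3 went from 8.42 to 17.7 RPKM, SOCS2 lost more than any other member, from 7.20 to 2.53 RPKM, and SOCS5 went from 8.35 to 4.40 RPKM. SOCS1, SOCS4, SOCS6 and SOCS7 were not called, and CISH was too low to be tested. Of the 8 members, 7 passed the filter on low values (0.5 RPKM or more in at least 3 of the 6 samples). Here "rose" and "fell" stand for an adjusted p below 0.05 (limma on log2(RPKM + 0.1), Benjamini-Hochberg over 12428 tested genes), and a DEG has a |log2 fold change| > 1 as well. By this rule 1 member rose, against 18.8% of all tested genes, and 2 fell, against 18.0%, which makes 3 of 7 tested members called, against 36.8%. The DEGs were SOCS2 and SOCS3, 2 of 7 tested members, against a background of 7.89% (5.20% up-regulated and 2.70% down-regulated). The median log2 fold change of the 7 was -0.10, beside 0.005 over all tested genes. A family of 8 is too small for these shares to set it apart from other genes.

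**Figure D1:**
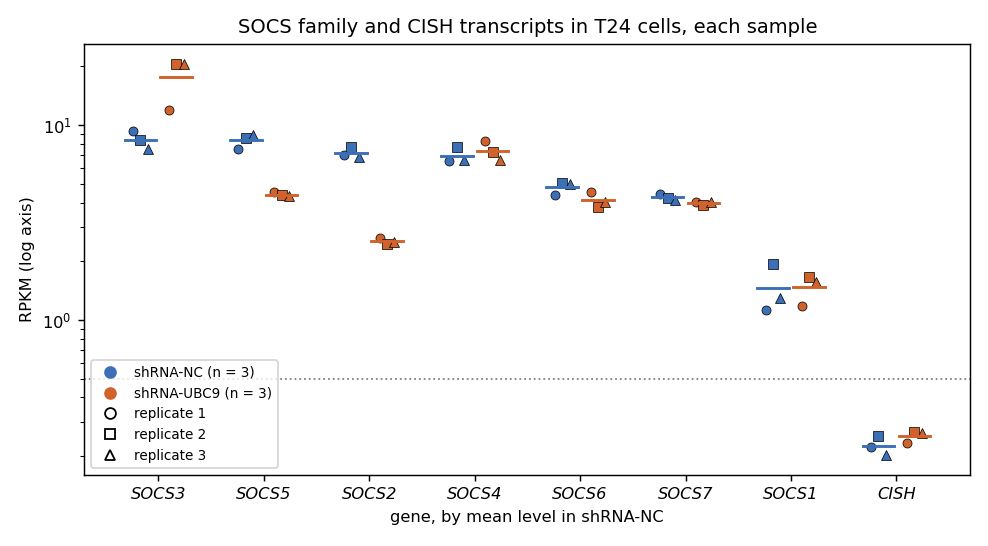
RPKM of each of the 8 genes in each of the 6 samples on a log axis, with shRNA-NC in blue, shRNA-UBC9 in orange, a marker shape for each replicate number and a horizontal bar at the mean of each group. The dotted line is the filter at 0.5 RPKM, with only CISH below it. SOCS3 sits higher in shRNA-UBC9, SOCS5 and SOCS2 sit lower, and the points of SOCS1, SOCS4, SOCS6 and CISH overlap between groups.

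SOCS3 encodes the brake on gp130 receptors of the interleukin-6 group. Its gene lies at chr17:78356778-78360077 on the minus strand (GENCODE 44, GRCh38) and has 2 exons. The levels were 9.33, 8.41 and 7.52 RPKM in shRNA-NC replicates 1, 2 and 3 and 11.9, 20.7 and 20.5 RPKM in shRNA-UBC9 replicates 1, 2 and 3. All 3 shRNA-UBC9 samples were above all 3 shRNA-NC samples, and within shRNA-UBC9 replicate 1 stood well below the other two. The means were 8.42 ± 0.901 and 17.7 ± 5.05 RPKM (SD, n = 3 each). The log2 fold change was 1.02 (SE 0.21, 95% interval 0.55 to 1.50, adjusted p = 0.00637), and 646 tested genes had a larger one. Between 696 and 1995 reads lay behind each value, a counting error of 2.2 to 3.8%, far below the difference within shRNA-UBC9. The rise was called under every alternative tried (adjusted p from 0.000199 to 0.0286). Its size sat at the DEG threshold, with a log2 fold change of 1.29 without shRNA-UBC9 replicate 1, 0.89 without replicate 2 and 0.90 without replicate 3 of that group, and 0.95 without shRNA-NC replicate 3.

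SOCS2 encodes the brake on growth hormone signalling and is itself a STAT5 target. It lies at chr12:93569814-93583487 on the plus strand and has 2 exons in its canonical transcript. The levels were 7.02, 7.70 and 6.86 RPKM in shRNA-NC and 2.63, 2.46 and 2.51 RPKM in shRNA-UBC9. The groups were far apart and each was tight, at 7.20 ± 0.446 and 2.53 ± 0.0888 RPKM (SD, n = 3 each), so the level in shRNA-NC was 2.84 times that in shRNA-UBC9. The log2 fold change was -1.47 (SE 0.09, 95% interval -1.68 to -1.26, adjusted p = 3.1e-05), and only 114 of the 12428 tested genes had a smaller one. The values rest on 480 to 1808 reads. Every alternative kept the call, with adjusted p-values from 1.8e-05 to 0.000538.

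The antisense gene SOCS2-AS1, a long non-coding RNA, lies at chr12:93542022-93571768 on the minus strand and shares 1955 bases with SOCS2. It was at 1.47, 1.38 and 1.44 RPKM in shRNA-NC and at 0.596, 0.483 and 0.557 RPKM in shRNA-UBC9. It fell too, by 1.25 on the log2 scale (SE 0.15, adjusted p = 0.000693). Of the reads counted for either gene, SOCS2-AS1 held 10.5, 9.15 and 10.6% in shRNA-NC and 11.3, 9.97 and 11.1% in shRNA-UBC9. These shares overlapped between the groups, so the ratio of the pair stayed within the spread of the samples while both levels changed. The sources do not state that strand was used in counting, and without strand the reads of the shared bases cannot be assigned to SOCS2 or to SOCS2-AS1.

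SOCS5 is a member with a long N-terminal region, linked to the epidermal growth factor receptor and to interleukin-4 signalling. It lies at chr2:46698952-46780245 on the plus strand. The levels were 7.57, 8.59 and 8.90 RPKM in shRNA-NC and 4.53, 4.36 and 4.31 RPKM in shRNA-UBC9. No shRNA-UBC9 sample reached the lowest shRNA-NC sample, and the spread within shRNA-UBC9 was small. The means were 8.35 ± 0.697 and 4.40 ± 0.115 RPKM (SD, n = 3 each), 1.90 times as high in shRNA-NC. The log2 fold change was -0.91 (SE 0.09, 95% interval -1.12 to -0.69, adjusted p = 0.000337), which is below 0 but short of the size of a DEG. The non-coding LINC01118, annotated over the whole of SOCS5 on the same strand, had 0 to 5 reads per sample. Of the pseudogenes of the family, SOCS5P4 had 1 to 5 reads per sample, and SOCS2P1, SOCS2P2, SOCS5P1, SOCS5P2, SOCS5P3 and SOCS5P5 were listed at 0 in all samples. How reads that map to several places were handled is not given in the sources used here.

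SOCS1 encodes the direct JAK inhibitor that restrains interferon signalling, and lies at chr16:11254417-11256204 on the minus strand. Its levels were 1.12, 1.93 and 1.30 RPKM in shRNA-NC and 1.18, 1.67 and 1.56 RPKM in shRNA-UBC9. The groups lay on top of each other, at 1.45 ± 0.426 and 1.47 ± 0.258 RPKM (SD, n = 3 each). The log2 fold change was 0.04 (SE 0.22, adjusted p = 0.913), with a 95% interval of -0.46 to 0.53. The interval leaves room for changes of moderate size in either direction. Only 41 to 82 reads lay behind each value, which gives a counting error of 11 to 16%. The whole gene lies within the span of RMI2 on the opposite strand, and RMI2 was at 7.13 RPKM in shRNA-NC and 6.48 RPKM in shRNA-UBC9 on average (adjusted p = 0.412). If strand was not used in counting, reads of any shared exon bases cannot be assigned to SOCS1 or to RMI2.

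CISH, the founding member and a classical STAT5 target, lies at chr3:50606489-50611774 on the minus strand. It was at 0.223, 0.254 and 0.202 RPKM in shRNA-NC and at 0.233, 0.266 and 0.263 RPKM in shRNA-UBC9, from 34 to 48 reads per sample. The groups overlapped, the means were 0.226 ± 0.0261 and 0.254 ± 0.0184 RPKM (SD, n = 3 each), and the difference of 0.12 on the log2 scale was within the counting error of 14 to 17% of single values. CISH stayed under the filter, and a fit of all genes without the filter gave an adjusted p of 0.692 (limma). Its gene shares 255 bases with MAPKAPK3 on the other strand, which rose (log2 fold change 0.31, adjusted p = 0.0217). The limit on strand given for SOCS1 holds for these bases too.

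SOCS4 and SOCS6 showed no call. SOCS4, at chr14:55027230-55049489 on the plus strand, was at 6.57, 7.71 and 6.64 RPKM in shRNA-NC and at 8.26, 7.24 and 6.63 RPKM in shRNA-UBC9. The means were 6.97 ± 0.639 and 7.38 ± 0.825 RPKM (SD, n = 3 each) and the groups overlapped, with a log2 fold change of 0.08 (95% interval -0.18 to 0.34, adjusted p = 0.614). SOCS6, linked to the receptor KIT, lies at chr18:70289045-70330199 on the plus strand, and was at 4.36, 5.04 and 4.98 RPKM in shRNA-NC and at 4.53, 3.78 and 4.01 RPKM in shRNA-UBC9. Its highest shRNA-UBC9 sample passed the lowest shRNA-NC sample. The means were 4.79 ± 0.379 and 4.11 ± 0.381 RPKM (SD, n = 3 each), and the log2 fold change was -0.22 (95% interval -0.46 to 0.03, adjusted p = 0.145).

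SOCS7, at chr17:38351844-38405593 on the plus strand, was steady within both groups. It was at 4.45, 4.21 and 4.12 RPKM in shRNA-NC and at 4.01, 3.88 and 4.03 RPKM in shRNA-UBC9. Every shRNA-UBC9 sample was below every shRNA-NC sample, by little, and the log2 fold change of -0.10 (95% interval -0.29 to 0.10) was not called (adjusted p = 0.414). The groups did not overlap for 4 tested members, SOCS3 (higher in shRNA-UBC9) and SOCS2, SOCS5 and SOCS7 (lower). The same held for 51.1% of all tested genes, 25.7% higher and 25.4% lower. In these 4 the exact permutation test over samples (two-sided) gave p = 0.1, the smallest that 3 samples against 3 allow. It gave 0.2 for CISH and SOCS6, 0.6 for SOCS4 and 0.9 for SOCS1.

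**Figure D2:**
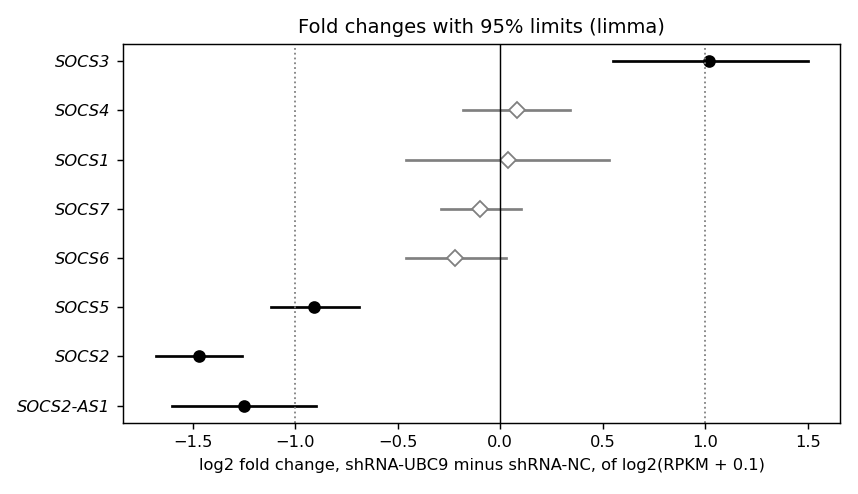
Log2 fold changes of log2(RPKM + 0.1), shRNA-UBC9 minus shRNA-NC, with 95% intervals from limma, for the 7 tested members and SOCS2-AS1. Filled black points passed adjusted p < 0.05, open grey diamonds did not, and dotted lines mark a log2 fold change of -1 and 1. SOCS2 and SOCS2-AS1 lie left of the line at -1, and the interval of SOCS3 runs from 0.55 to 1.50.

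The order of the members changed between the groups. In shRNA-NC the mean levels per length ran from SOCS3 (8.42 RPKM) through SOCS5 (8.35), SOCS2 (7.20) and SOCS4 (6.97) to SOCS6 (4.79), SOCS7 (4.26), SOCS1 (1.45) and CISH (0.226). Neighbours among the top 4 overlapped over samples, as did SOCS6 with SOCS7, while SOCS4 and SOCS6 did not. In shRNA-UBC9 SOCS3 stood alone at 17.7 RPKM, SOCS4 was next at 7.38, and SOCS5 (4.40), SOCS6 (4.11) and SOCS7 (3.98) overlapped as neighbours. SOCS2 came after these at 2.53 RPKM, above SOCS1 and CISH only.

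The summed level of the 8 genes hardly differed, at 40.6, 43.8 and 40.5 RPKM in shRNA-NC and 37.3, 44.4 and 43.8 RPKM in shRNA-UBC9 (41.6 ± 1.88 and 41.8 ± 3.94, SD, n = 3 each). Its make-up did. SOCS3 was 22.9, 19.2 and 18.6% of the sum in shRNA-NC and 31.9, 46.7 and 46.8% in shRNA-UBC9. The share of SOCS2 was 17.3, 17.6 and 16.9% in shRNA-NC and 7.06, 5.54 and 5.72% in shRNA-UBC9, and that of SOCS5 averaged 20.1 ± 1.75% and 10.6 ± 1.37% (SD, n = 3 each). The RPKM ratio of SOCS3 to SOCS2 was 1.33, 1.09 and 1.10 in shRNA-NC and 4.51, 8.42 and 8.18 in shRNA-UBC9. SOCS4 was below SOCS5 in every shRNA-NC sample (ratio 0.746 to 0.898) and above it in every shRNA-UBC9 sample (1.54 to 1.83). These sums and ratios follow from the member values and were not tested.

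**Figure D3:**
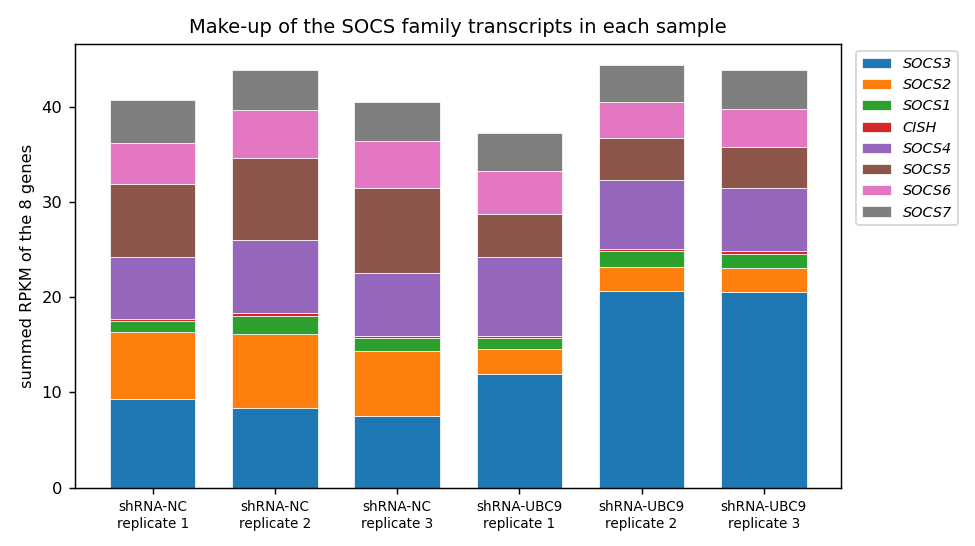
Summed RPKM of the 8 genes in each of the 6 samples, with each gene as a stacked segment from 0. The bars reach between 37.3 and 44.4 RPKM, the lowest segment (SOCS3) is largest in the shRNA-UBC9 bars, and the SOCS2 and SOCS5 segments are smaller there. CISH is barely visible.

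The genes around the SOCS proteins were described from 10 lists ordered by their place in the pathway. Beside their counts stand the shares of all tested genes, 18.8% that rose, 18.0% that fell and 7.89% that were DEGs. Among the cytokine ligands, 14 of 40 were expressed enough to be tested, 10 rose, 0 fell and 7 were DEGs, with a median log2 fold change of 1.09. Of these, IL23A, IFNL1 and IL24 (IL24 named after its values were seen) averaged under 0.5 RPKM in shRNA-NC and passed the filter through shRNA-UBC9, so they could only be tested by being higher there. Of the other 11 tested ligands 7 rose, 0 fell and 4 were DEGs (median 0.68). IL6, the interleukin that signals through gp130 and induces SOCS3, was at 1.88, 4.49 and 0.843 RPKM in shRNA-NC and at 76.7, 109 and 73.8 RPKM in shRNA-UBC9. LIF, another gp130 ligand, went from 41.3 ± 10.5 to 116 ± 20.8 RPKM (SD, n = 3 each, log2 fold change 1.50). CSF3 (granulocyte colony-stimulating factor) had a log2 fold change of 7.41 and CSF2 of 4.92. With a floor of 1 RPKM in every sample only 4 ligands were called, where fewer of them were tested.

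Of 40 receptor chains, 19 were tested, 9 rose, 2 fell and 3 were DEGs (median 0.48). IL6ST, which encodes the gp130 chain that SOCS3 docks on, went from 23.9 ± 3.29 to 39.3 ± 1.42 RPKM (SD, n = 3 each, log2 fold change 0.72, adjusted p = 0.0018). The oncostatin M receptor OSMR was a DEG at 1.11, as were the interleukin-22 chain IL22RA1 at 1.26 and the lambda interferon chain IFNLR1 at 1.17. LIFR, which pairs with gp130 for LIF, was at 2.34 and 1.89 RPKM and was not called (adjusted p = 0.318). IL6R, the receptor chain specific to IL6, was at 0.279 RPKM or less in all samples and was under the filter. CSF3R, the receptor of CSF3, was at 0.0386 RPKM or less in all samples. GHR and PRLR, the growth hormone and prolactin receptors whose signalling SOCS2 and CISH are known to restrain, reached at most 0.00447 and 0.0762 RPKM. These receptors and the ratios that follow were picked after their values were seen.

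The RPKM of SOCS3 relative to IL6ST was 0.448, 0.307 and 0.319 in shRNA-NC and 0.311, 0.536 and 0.502 in shRNA-UBC9. Relative to OSMR it was 0.579, 0.504 and 0.414 in shRNA-NC and 0.289, 0.596 and 0.594 in shRNA-UBC9. Both ratios overlapped between the groups, so the difference in SOCS3 relative to these receptor chains was within the spread of the samples.

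Of 11 JAK and STAT genes, 9 were tested, 3 rose and 0 fell (median 0.15). STAT2 had a log2 fold change of 0.85 (adjusted p = 0.0182) and JAK1 of 0.31 (adjusted p = 0.0398). The call of STAT2 was kept in 9 of 10 alternatives of processing and in 5 of 6 fits with a sample left out. That of JAK1 was kept in only 5 of 10 and 1 of 6. Without shRNA-NC replicate 1 only 1 gene of the list was called. STAT3, the factor downstream of gp130, was at 20.8, 25.5 and 20.7 RPKM in shRNA-NC and at 25.5, 25.8 and 23.8 RPKM in shRNA-UBC9 and was not called (0.17, adjusted p = 0.228). STAT5A (-0.09), STAT5B (-0.22), STAT6 (0.15), JAK2 (-0.01) and TYK2 (-0.03) were not called.

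Of 20 receptor tyrosine kinase and adaptor genes named as targets of SOCS proteins, 14 were tested, 3 rose and 3 fell (median -0.07). The share was 21.4% in each direction, near that of all tested genes. The insulin-like growth factor receptor IGF1R, to which SOCS2 can bind, was the only DEG and fell from 5.23 ± 0.411 to 2.37 ± 0.218 RPKM (SD, n = 3 each, log2 fold change -1.11). The adaptor GRB2 rose (0.39). EGFR, a known target of SOCS4 and SOCS5 and named here after its values were seen, was at 15.5, 15.4 and 14.8 RPKM in shRNA-NC and at 16.7, 8.58 and 9.83 RPKM in shRNA-UBC9. As with SOCS3, replicate 1 of shRNA-UBC9 differed from the other two, and EGFR was not called (adjusted p = 0.147).

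A list of 16 genes held the elongins, cullin-5, cullin-2, their RING proteins and the partner ligases ARIH1 and ARIH2, with enzymes and regulators of the NEDD8 modification that activates cullins. All 16 were tested, and 4 rose and 1 fell (median 0.04). The gene that fell, named after its values were seen, was UBA3, a subunit of the NEDD8-activating enzyme (-0.97, adjusted p = 0.000516). Other enzymes of this modification, also named after their values were seen, went the other way or were not called. UBE2M (0.59, adjusted p = 0.00175) and UBE2F (0.45, adjusted p = 0.0109) rose, and NAE1 was not called (adjusted p = 0.985). Elongin C (ELOC) rose from 10.1 to 14.1 RPKM (log2 fold change 0.47, adjusted p = 0.00505) and RNF7, the RING protein paired with cullin-5, from 14.0 to 19.0 RPKM (0.44, adjusted p = 0.00706). Elongin B (ELOB), the highest of the list at 81.2 and 76.3 RPKM, was not called (-0.09), nor was CUL5 (-0.18, adjusted p = 0.175). Of 31 other proteins with a SOCS box, 18 were tested, 2 rose and 0 fell (median 0.09). SPSB1, an adaptor for inducible nitric oxide synthase, was the DEG, at 7.28 ± 0.922 and 16.0 ± 2.27 RPKM (SD, n = 3 each, log2 fold change 1.12). WSB1, the highest of these by the mean over all 6 samples, was not called (adjusted p = 0.112).

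Among 18 other brakes on JAK-STAT signalling (phosphatases, PIAS proteins and others), 16 were tested, 3 rose and 3 fell (median 0.00). USP18, which blocks the type I interferon receptor, was the only DEG, with 5.19, 8.72 and 5.98 RPKM in shRNA-NC and 26.8, 81.4 and 33.1 RPKM in shRNA-UBC9 (log2 fold change 2.67). TRIM28 passed narrowly (-0.52, adjusted p = 0.0499) and lost its call in several alternatives. The remaining calls were named after their values were seen. The phosphatase genes PTPN1 (-0.54, adjusted p = 0.00315) and PTPN2 (-0.52, adjusted p = 0.0121) fell. SH2B3 (0.60, adjusted p = 0.00174) and PIAS4 (0.30, adjusted p = 0.03) rose.

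The target genes of the STATs were counted last. Of 28 STAT3 targets, 21 were tested, 14 rose, 1 fell and 9 were DEGs (median 0.92). FOS (1.94), at 0.312 RPKM on average in shRNA-NC, passed the filter through shRNA-UBC9, and of the other 20 targets tested 13 rose, 1 fell and 8 were DEGs (median 0.86). Examples were ICAM1 (2.56), CEBPB (2.19), TIMP1 (1.72), IRF9 (1.52) and CEBPD (1.02), the last of which lost its call in some alternatives. Of 24 interferon targets, 22 were tested, 19 rose, 0 fell and 17 were DEGs (median 2.01), among them MX1 (4.53), IFI6 (4.16), CD274 (1.38) and PSMB9 (1.16). CXCL10 (5.55) averaged 0.27 RPKM in shRNA-NC and passed the filter through shRNA-UBC9, and without it 18 of 21 rose. Of 11 STAT5 targets, 7 were tested, 2 rose and 1 fell, the cyclin CCND1 (-0.44, adjusted p = 0.0255, lost in some alternatives), with a median of -0.01. The lists share genes, so their counts are not independent. PIM1, BCL6, BCL2L1, CCND1 and MYC were tested in both the STAT3 and the STAT5 list. CCND1 is thus also the STAT3 target that fell, and BCL6 rose in both lists. IRF9 is in both the STAT3 and the interferon list. The members that are known STAT targets were unlike each other, since SOCS3 rose, SOCS2 fell, SOCS1 was not called and CISH was under the filter. The counts of the lists are a description beside the 18.8% of all tested genes that rose and the 18.0% that fell.

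**Figure D4:**
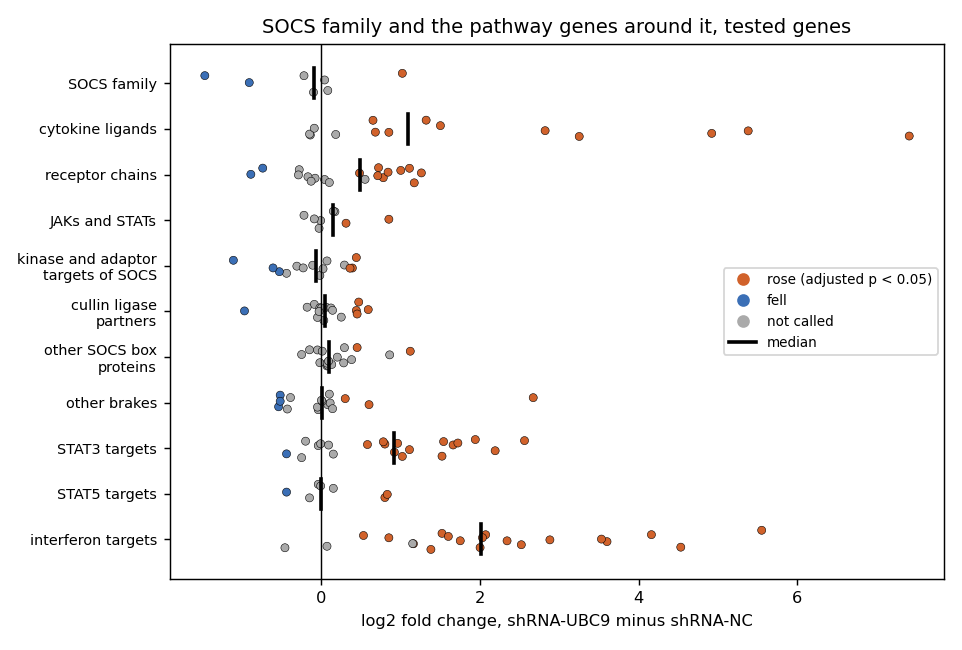
Log2 fold changes, shRNA-UBC9 minus shRNA-NC, of the tested genes of the SOCS family and of 10 pathway lists (1 tested gene, which belongs to 2 of the lists, is not drawn), 1 point per gene with vertical scatter added for sight only. Orange points rose, blue points fell, grey points were not called and black bars are medians, over all tested genes of a list, from 2.01 for interferon targets to -0.10 for the SOCS family.

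The 3 tested genes whose values followed SOCS2 most closely over the 6 samples, by the root mean square difference of log2(RPKM + 0.1) centred on shRNA-NC, were SLC25A24 (0.067), MOK (0.068) and CLU (0.085). Clusterin (CLU) was at 1.55, 1.76 and 1.62 RPKM in shRNA-NC and at 0.587, 0.571 and 0.471 RPKM in shRNA-UBC9. For SOCS3 they were VSTM1 (0.105), the lipid transporter MFSD2A (0.139) and ZNF503-AS2 (0.157). ZNF503-AS2 averaged 0.295 RPKM in shRNA-NC and passed the filter through shRNA-UBC9, so it could only be tested by being higher there. VSTM1 had the lower replicate 1 of SOCS3 in shRNA-UBC9 as well, with 5.57 RPKM against 9.63 and 8.55 RPKM in the other two. The likeness follows from a search of all tested genes over 6 samples and says nothing of shared control.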

How the data were processed

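Polyadenylated RNA of T24 cells (3 shRNA-NC and 3 shRNA-UBC9 samples, TruSeq kit) was sequenced. Per the study's methods, the authors trimmed adaptors and used the CLC Biomedical Genomics Workbench, at default settings, to map the reads against GRCh38. They deposited 1 table of RPKM per sample, with 58174 gene symbols each. The submitters' processing notes name hg38. The annotation release, the use of strand, and whether single reads or pairs were counted are not given in the sources used here. Groups and replicate numbers came from the sample titles.

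RPKM corrects for gene length and mapped reads but not for RNA composition. Values were taken to log2(RPKM + 0.1), a scale that understates changes of low genes. The 12428 genes with at least 0.5 RPKM in at least 3 of 6 samples entered a fit with limma (version 3.58.1, R version 4.3.3; lmFit, then eBayes with trend), with Benjamini-Hochberg adjustment over all of them. Rose or fell means an adjusted p below 0.05, and a DEG also has a |log2 fold change| > 1. An exact permutation test of 3 against 3 cannot go below 0.1. Every adjusted p comes from limma.

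Mapped reads per sample were solved from the smallest RPKM steps of single-transcript genes, and each gene's length was then chosen so that all 6 values were whole reads within 0.02, which succeeded for 100% of tested genes. Counting errors cover counting only, since duplicate reads are not independent molecules.

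The members and lists were chosen with earlier results of these data known. Named genes are the 8 members, the DEGs of each list (the 3 largest and 3 smallest where there are more than 6) with its most abundant gene, JAKs, STATs, direct partners of SOCS proteins, overlapping genes and pseudogenes, and the 3 genes most like each DEG member. Coordinates are from GENCODE 44, and promoter windows from RefSeq (GRCh38.p14), in which 5 of 8 members matched by symbol. The alternatives were pseudocounts of 1 and 0.01, no filter, 1 RPKM in every sample, median scaling, quantile normalization, eBayes with no trend, the replicate number as a block, each sample left out in turn, unadjusted p, and limma voom on the recovered reads, chosen after seeing the data. The scripts were tested on simulated data. Python 3.11.15, numpy 2.4.6, pandas 2.3.3, scipy 1.17.1 and matplotlib 3.10.9 did the rest. Values of some genes are not reported here.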

Additional observations from a re-analysis of the deposited data

How the results depend on the processing

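Under every alternative run, SOCS3 rose, SOCS2 and SOCS5 fell, and no other member was called. The number of SOCS family DEGs was 1 instead of 2 with a pseudocount of 1, with quantile normalization and with median scaling, and 1 to 2 when a sample was left out, because the log2 fold change of SOCS3 went below the DEG threshold (0.95, 0.99 and 0.98 in the former). With a pseudocount of 1, 552 DEGs were left of 981, and no other alternative gave fewer. Without a filter there were 1206. Leaving out a sample gave 2986 to 4027 genes past adjusted p < 0.05 instead of 4576, the fewest without shRNA-NC replicate 3. Calls among cytokine ligands were 4, and among receptor chains 7, with 1 RPKM in every sample, where fewer genes were tested. Without shRNA-UBC9 replicate 2 there were 6 ligand calls, in a range of 6 to 9 over left-out samples. JAK and STAT calls ranged from 1 to 3 over left-out samples, and STAT5 target calls from 1 to 3, with 1 without shRNA-NC replicate 1 and without shRNA-UBC9 replicate 2. STAT5 target calls were 1 with no filter. Unadjusted p-values gave 6 calls among other SOCS box proteins. The cause was not tested except where the number of genes tested is named.

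Same-numbered samples did not deviate together (correlations of -0.367, 0.073 and -0.17), so the numbers were not taken as pairs, and the replicate block changed no member call, with a log2 fold change of 1.02 for SOCS3 and 2 SOCS family DEGs. Among single named genes, 30 values lost and 1 gained a call under an alternative, with JAK1, STAT2, TRIM28, CCND1 and CEBPD among the losses, and no called value changed direction. Depth limits CISH and SOCS1 most, with at most 48 and 82 reads per sample.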
